A study of Mus musculus with 412 samples.

Results

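Hcn2, Hcn3 and Hcn4 encode hyperpolarisation-activated, cyclic nucleotide-gated cation channels, and their levels were read in single sensory neurons of the mouse colon. The 3 genes were found by their Ensembl identifiers among the 45513 genes of the deposited table, which held 325 neurons. Neurons had been labelled in C57BL/6J mice by injecting the retrograde dye Fast Blue into the wall of the colon, and 3 to 10 days later the dorsal root ganglia were dissociated and labelled neurons were picked by hand into 6 library plates. The table held 167 of 203 neurons labelled thoracolumbar (TL) and 158 of 196 labelled lumbosacral (LS), and all came from healthy mice of the same strain with no treatment other than the tracing. Age and sex of the mice are not given in the sources used here, and picked neurons are only those that took up the dye and survived dissociation. No label names the mouse or culture of a neuron, so TL and LS were each 1 sample, neurons were not used as replicates and no test was run. Differences were instead set against their spread over library plates, of which plates 2 to 6 held both segments and plate 1 held 5 TL neurons alone.

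HCN channels open when the membrane becomes more negative and carry an inward current, called Ih, that pulls the membrane back towards the threshold for firing, which is why they are known as pacemaker channels. Cyclic AMP binds the intracellular end of the channel and makes opening easier, an effect known to be strong for the Hcn2 and Hcn4 channels and weak for the Hcn3 channel. Hcn4 is the main pacemaker channel of the sinoatrial node of the heart, and Hcn2 in nociceptors has been tied to firing in inflammatory and neuropathic pain.

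In the GRCm38 genome the 3 genes lie apart. Hcn2 (ENSMUSG00000020331) is on the plus strand of chromosome 10 from 79716634 to 79736108, Hcn3 (ENSMUSG00000028051) is on the minus strand of chromosome 3 from 89146074 to 89160196, and Hcn4 (ENSMUSG00000032338) is on the plus strand of chromosome 9 from 58823412 to 58863175. All 3 are annotated as protein-coding genes. The annotation places no other gene over Hcn2 or Hcn4, whereas 711 exonic bases at the 3′ end of Hcn3, 17.1% of its exonic length, are shared with the opposite-strand gene Pklr, a pyruvate kinase of liver and red blood cells. Reads in those bases cannot be told apart between the 2 genes without strand, and Pklr itself was at a mean level of 0.095 and reached 10 in 0 of 325 neurons.

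Levels are given per 1000000 and per length. Each deposited value was taken off the log2 scale and divided by the sum over all genes of that neuron, so that a level of 10 means 10 parts in 1000000 after correction for gene length, and levels of different genes can be compared. A level of 10 corresponded in the median neuron to 38.9 reads of Hcn2, 50.6 of Hcn3 and 46.2 of Hcn4. Recovered reads ranged from 485751 to 10499482 per TL neuron (median 2709639) and from 416007 to 12058968 per LS neuron (median 3202776). The median number of genes detected was 13497 for TL and 13975 for LS. Markers of sensory neurons were present in every cell, as the neuronal genes Prph and Tubb3 were at 10 or more in all 325 neurons and the sum over 10 such markers ranged from 2223 to 28602 with a median of 14945. A group of 47 neurons (29 TL, 18 LS) had few genes, at most 9521, against at least 9564 in the other 278.

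Hcn3 was the member with the highest level in most neurons. Its level ranged from 0 to 72.4 (median 23.1) and averaged 23.7 ± 16.4 (SD over 325 neurons), and it was at 10 or more in 251 neurons, or 77.2% (exact 95% interval 72.3 to 81.7). Hcn2 ranged from 0 to 55.4 (median 4.16) and averaged 6.16 ± 7.17, and 62 neurons, or 19.1% (15.0 to 23.8), were at 10 or more. Hcn4 ranged from 0 to 44.4 (median 0.277) and averaged 1.89 ± 4.20, and only 11 neurons, or 3.38% (1.70 to 5.98), were at 10 or more.

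The order Hcn3, Hcn2, Hcn4 was the same in the plate means, which ran from 21.9 to 28.6 for Hcn3, from 3.87 to 7.74 for Hcn2 and from 1.59 to 2.70 for Hcn4, with no overlap between genes over plates 2 to 6. The 5 TL neurons of plate 1 averaged 4.33 for Hcn3 and 1.00 for Hcn2. No read was recovered for Hcn4 in 154 neurons, for Hcn2 in 48 and for Hcn3 in 42. At this depth a value of 0 allows up to 3 reads, or a level of up to 4.79 for Hcn4 in the neuron where 1 read weighed most, so low expression below that was not detectable there. Intervals and this limit cover counting error only, as reads without molecular identifiers are not independent molecules.

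Within single neurons, Hcn3 exceeded the other members in 261 of 325 (80.3%), Hcn2 in 37 (11.4%) and Hcn4 in 6 (1.85%), and all 3 were at 0 in 21 (6.46%). Hcn2 led in 27 of 167 TL neurons (16.2%) and in 10 of 158 LS neurons (6.33%). Of the 21 neurons without a read for any member, 17 were TL and 4 LS, and 17 were among the 47 neurons with few genes.

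Levels of the members moved with the number of genes detected. In TL, Hcn3 averaged 6.72 in the 29 neurons with few genes and 23.9 in the other 138, and in LS it averaged 5.71 in 18 and 29.3 in 140. Among neurons with few genes, Hcn3 was at 0 in 21 of 29 for TL and in 11 of 18 for LS, against 10 of 138 and 0 of 140 in the rest. Hcn2 averaged 4.19 against 4.83 in TL and 3.70 against 8.19 in LS. The neurons with few genes were lower for Hcn3 in 5 of 5 plates in each segment. Many comparisons of segments, classes and marker groups are therefore also given without these neurons. The ranking of genes by likeness was run on all neurons alone.

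**Figure D1:**
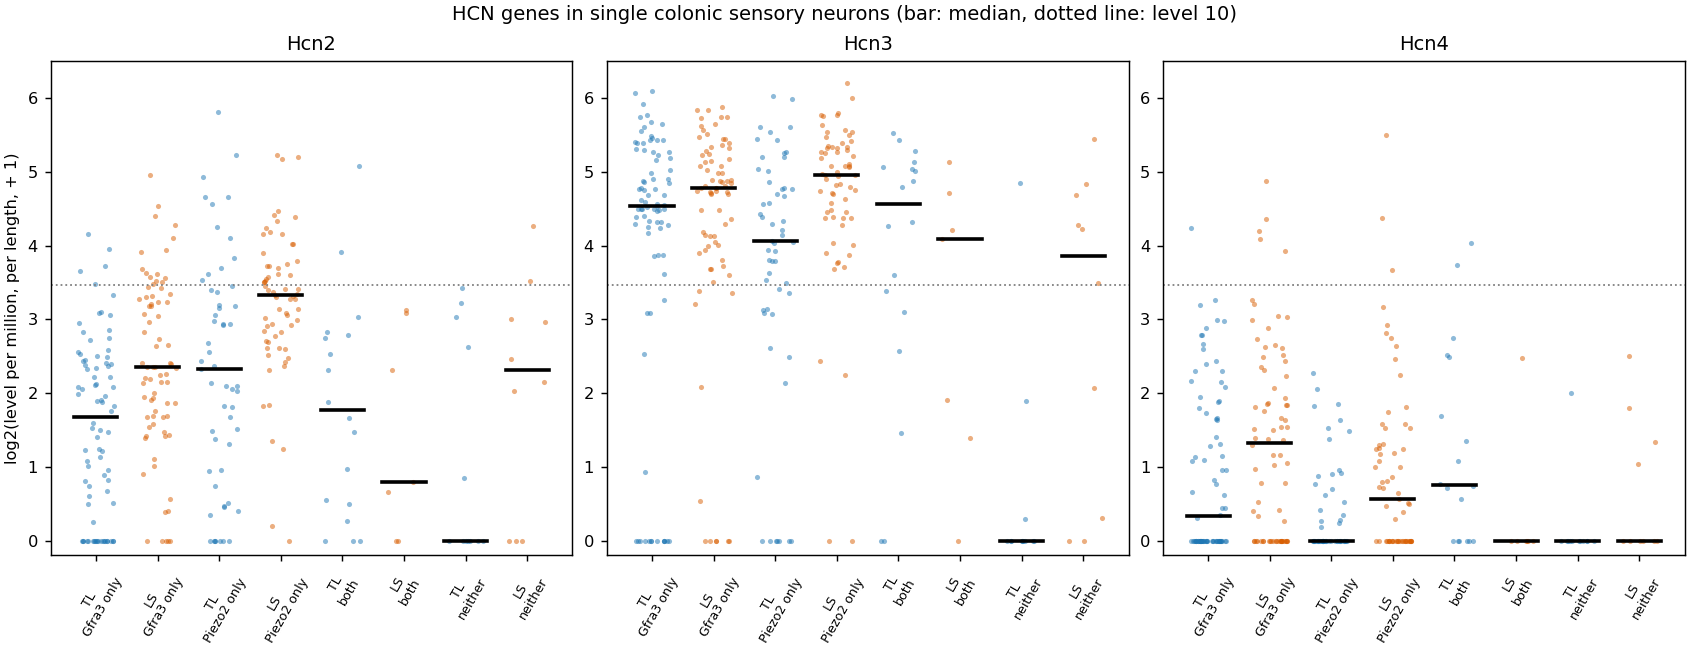
Level of Hcn2, Hcn3 and Hcn4 in each neuron, on a scale of log2(level + 1), by spinal segment (TL blue, LS orange) and by whether Gfra3, Piezo2, both or neither were at 10 or more. Each point is 1 neuron, black bars are medians and the dotted line is a level of 10. Most Hcn3 points lie above the line, most Hcn2 points lie below it and most Hcn4 points lie near 0.

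The first comparison asked whether the segments, which supply the colon through different nerves, differed in their HCN genes. All 3 members had a higher mean in LS than in TL neurons, in each of the 5 plates with both segments, and none by as much as 2-fold. Hcn2 ranged from 0 to 36.4 (median 6.62) in LS and from 0 to 55.4 (median 2.69) in TL neurons. The means were 7.68 and 4.72, a log2 ratio of 0.70, and the ratio within plates ran from 0.52 to 1.48. Hcn2 was at 10 or more in 43 of 158 LS neurons (27.2%) and 19 of 167 TL neurons (11.4%). The single neuron with the highest Hcn2 was nevertheless a TL neuron with few genes.

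Hcn3 ranged from 0 to 72.4 (median 26.5) in LS and from 0 to 67.6 (median 20.0) in TL neurons. Its means were 26.6 and 20.9, a log2 ratio of 0.34 with plates from 0.07 to 0.55, and 136 LS neurons (86.1%) against 115 TL neurons (68.9%) were at 10 or more. Hcn4 ranged from 0 to 44.4 (median 0.720) in LS and from 0 to 17.9 (median 0) in TL neurons. Its means of 2.51 and 1.30 gave a log2 ratio of 0.94 with plates from 0.34 to 1.79, but they rested on few neurons, with 8 LS and 3 TL neurons at 10 or more. Without the LS neuron that was highest for Hcn4 the ratio was 0.78, with LS higher in 5 of 5 plates. Values of the segments overlapped widely for every member.

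A gene was called past the fold where its mean was at least 10 in either group, the means differed at least 2-fold and every plate had the same direction. LS was higher past this limit for 191 of 7752 genes, or 2.46%, and TL for 175, or 2.26%, with 0 of the 3 members in either direction. The balance between segments turned to TL on values not rescaled (132 for LS and 225 for TL), without neurons with few genes (193 and 212), without plate 2 (183 and 186) and without plate 6 (201 and 241). Only Hcn3 had the required mean in this comparison. With the minimum mean lowered to 1, which all 3 members reached, LS was higher for 731 of 16184 genes, or 4.52%, and TL for 561, or 3.47%, again with 0 members. The median log2 ratio over the 7752 genes was 0.04.

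Leaving out the 47 neurons with few genes kept each direction. Hcn2 then averaged 8.19 in LS and 4.83 in TL (log2 ratio 0.76), Hcn3 29.3 and 23.9 (0.29), and Hcn4 2.70 and 1.58 (0.77), with LS higher in 5, 5 and 4 of 5 plates. TL neurons also carried more satellite glia transcripts, with a median sum over the 10 markers of 2564 (0 to 99852) against 1408 (0.323 to 60732) in LS. Among those markers 3 were past the fold, all higher in TL and Sox10 and Fbln5 among them. The median log2 ratio of the 8 with a mean of at least 10 was -1.22. Their part in the result was not tested. Leaving out the 17 neurons (5%) highest for these markers gave log2 ratios of 0.67 for Hcn2, 0.31 for Hcn3 and 0.89 for Hcn4. Glia transcripts in the other neurons were left as they were.

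**Figure D2:**
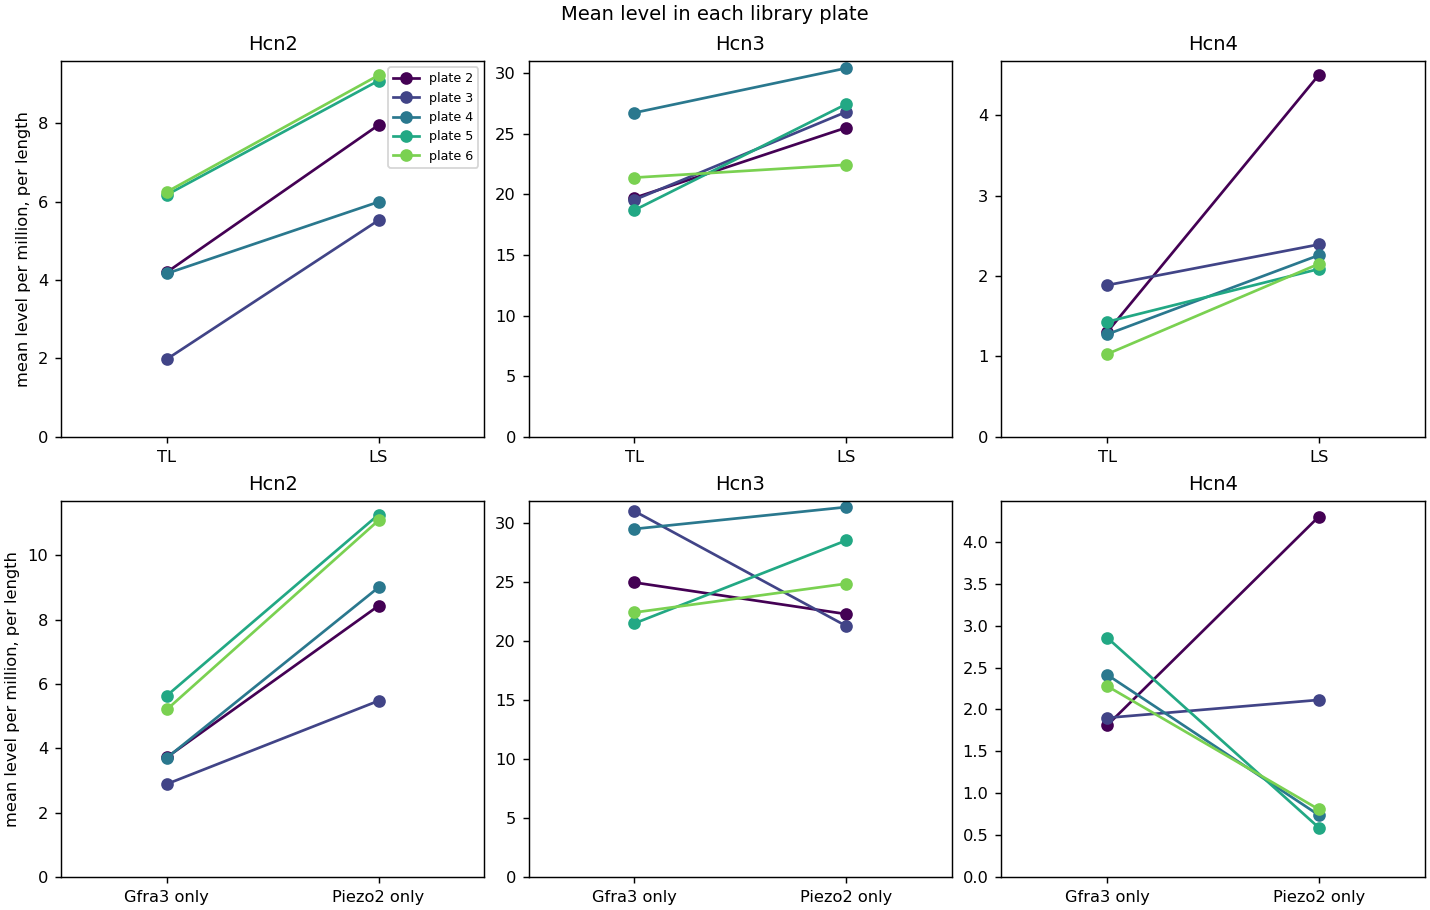
Mean level of Hcn2, Hcn3 and Hcn4 in TL and LS neurons (top) and in Gfra3 only and Piezo2 only neurons (bottom), 1 line for each library plate from 2 to 6 and axes from 0. All lines rise from TL to LS for the 3 genes and from Gfra3 only to Piezo2 only for Hcn2, while those of Hcn3 and Hcn4 cross in the lower row.

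Neurons were next divided by Gfra3, the receptor subunit for the growth factor artemin that marks many peptidergic nociceptors, and Piezo2, a mechanically gated channel of touch and proprioceptive neurons. With a level of 10 as the limit, 158 neurons (82 TL, 76 LS) had Gfra3 only, 120 (55 TL, 65 LS) had Piezo2 only, 25 (18 TL, 7 LS) had both and 22 (12 TL, 10 LS) had neither. From the peptidergic list Calca, Tac1 and Trpv1 were past the fold in favour of Gfra3 only neurons. Of the other 5 genes of the neurofilament list, Nefh, Nefm, Ldhb and Ntrk2 were past the fold in favour of Piezo2 only neurons, and Ntrk3 was under the minimum mean. Nefh, the heavy neurofilament chain, averaged 288 in Piezo2 only and 31.2 in Gfra3 only neurons.

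Over both segments Hcn2 was the member that followed this division, although neurons with Mrgprd, read below, were an exception. It ranged from 0 to 55.4 (median 7.21) in Piezo2 only neurons and from 0 to 30.2 (median 3.24) in Gfra3 only neurons. The means were 9.14 and 4.50, a log2 ratio of 1.02, and the 5 plates agreed closely, from 0.92 to 1.28. Hcn2 was at 10 or more in 38 of 120 Piezo2 only neurons (31.7%, 23.5 to 40.8) and 20 of 158 Gfra3 only neurons (12.7%, 7.91 to 18.9). The difference was present in each segment, with means of 7.61 and 3.05 in TL (log2 ratio 1.32) and of 10.4 and 6.07 in LS (0.78), and with Piezo2 only higher in 5 of 5 plates in both.

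Piezo2 only neurons were higher past the fold for 433 of 7895 genes with a mean of at least 10, or 5.48%, and Gfra3 only neurons for 315, or 3.99%. Hcn2 fell short of that minimum mean. With the minimum at 1, Piezo2 only neurons were higher for 1106 of 16336 genes, or 6.77%, and Gfra3 only neurons for 884, or 5.41%, and Hcn2 was the 1 member past the fold, barely, with a ratio of 2.03. Without the neurons with few genes the ratio was 1.82, from means of 9.02 and 4.96, still in 5 of 5 plates but under 2-fold.

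Hcn3 did not separate the classes. Its level ranged from 0 to 72.4 (median 25.0) in Piezo2 only and from 0 to 67.6 (median 25.2) in Gfra3 only neurons, with means of 25.5 and 25.2. The log2 ratio of 0.02 took either sign across plates, from -0.54 to 0.41, and across alternatives. The segments went opposite ways in their means, but not in every plate. In TL, Piezo2 only neurons averaged 19.7 and Gfra3 only neurons 24.4, and in LS they averaged 30.4 and 26.1. TL Piezo2 only neurons were nevertheless higher in plate 5 (23.1 against 17.9) and plate 6 (23.2 against 22.4). LS Piezo2 only neurons were lower in plate 3 (24.7 against 32.7). Without neurons with few genes, TL Piezo2 only neurons were lower in 5 of 5 plates (20.1 against 28.4), and LS Piezo2 only neurons were higher in 4 of 5 (31.7 against 28.4). The difference between segments was not tested.

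Hcn4 was lower in Piezo2 only neurons within TL, where 33 of 55 had no read and the highest level was 3.81. Of the TL Gfra3 only neurons 40 of 82 had no read, and the highest level was 17.9. The TL means were 0.485 and 1.68, a log2 ratio of -1.79, with Gfra3 only higher in 5 of 5 plates. As a difference of mean log2(x + 1) the TL contrast was -0.52. In LS the means were 2.27 and 3.09 and 3 of 5 plates had Gfra3 only higher. That LS contrast leaned on 1 Piezo2 only neuron of plate 2 with a level of 44.4 and 617 reads, without which the Piezo2 only mean was 1.61. The LS log2 ratio of -0.44 was -1.22 without plate 2 and 0.03 without plate 4. Over both segments the means were 1.45 and 2.36 (log2 ratio -0.70, plates from -2.28 to 1.25).

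The segments were also compared within each class. Among Gfra3 only neurons LS over TL gave a log2 ratio of 0.99 for Hcn2 (6.07 against 3.05, 5 of 5 plates), 0.10 for Hcn3 (26.1 against 24.4, 3 of 5) and 0.88 for Hcn4 (3.09 against 1.68, 4 of 5). Among Piezo2 only neurons the ratios were 0.46 for Hcn2 (10.4 against 7.61, 4 of 5 plates), 0.62 for Hcn3 (30.4 against 19.7, 5 of 5) and 2.23 for Hcn4 (2.27 against 0.485, 4 of 5). That Hcn4 ratio fell to 1.38 without plate 2 and to 1.73 without the neuron highest for Hcn4. Without neurons with few genes, LS was higher among Gfra3 only neurons in 5, 2 and 3 of 5 plates for Hcn2, Hcn3 and Hcn4. Their Hcn3 means were then 28.4 in both segments, and their Hcn4 means were 3.18 in LS and 2.03 in TL. Among Piezo2 only neurons the counts stayed at 4, 5 and 4 of 5 plates. The difference between the ratios of the classes was not tested.

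The remaining neurons were 25 with both genes and 22 with neither. Neurons with both averaged 4.38 for Hcn2, 19.1 for Hcn3 and 2.19 for Hcn4. Neurons with neither averaged 3.85, 7.97 and 0.578, and 11 of 22 had no Hcn3 read. Low gene number and satellite glia markers moved with the classes. Without neurons with few genes, 136 of 158 Gfra3 only and 111 of 120 Piezo2 only neurons were left. The median sum of the glia list was 2194 in Piezo2 only and 962 in Gfra3 only neurons, and 94.7 in LS Gfra3 only neurons. Within that list S100b, which many large sensory neurons also express, was past the fold in favour of Piezo2 only neurons (1236 against 67.9), 2 others were past it in favour of Gfra3 only neurons, and the median of the 7 with a mean of at least 10 was -1.03. Their part in the result was not tested.

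Markers of 2 other cell types were also read. The macrophage list had a median sum of 60.3 in Gfra3 only and 14.0 in Piezo2 only neurons (ranges 0 to 299 and 0 to 147), nearly all of it C1qb, while C1qa reached 10 in 0 neurons. The endothelial list had a median of 0.189 and was at 100 or more in 2 neurons, both TL and Piezo2 only, the higher with a sum of 21458. Leaving them out left the Hcn2 ratio at 2.05.

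The study's methods use 7 genes to sort colonic neurons, and members were therefore read in neurons with each of them at 10 or more. These groups overlap, and all neurons with Hpse or Ntm came from LS. Neighbours in the order of means are said to differ only where every plate with at least 3 neurons of each had the same direction.

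By mean level, Hcn2 was highest in neurons with Cbln2, a synaptic organiser, and lowest in those with Mrgprd, a receptor of non-peptidergic nociceptors. In 17 Cbln2 neurons it ranged from 0 to 55.4 (median 9.58, mean 15.4) and 7 were at 10 or more. In 17 Mrgprd neurons it ranged from 0 to 9.97 (median 0.422, mean 1.87) and 0 of 17 were at 10 or more, which allows a share of up to 19.5% (exact interval). Between them stood neurons with Hpse (heparanase, mean 10.2, n = 44), Fam19a1 (a secreted neurokine, 7.90, n = 40), Ntm (the adhesion protein neurotrimin, 6.64, n = 48), Trpa1 (an irritant-gated channel, 3.97, n = 170) and Smr2 (a salivary secreted protein, 3.29, n = 24). Cbln2 and Hpse neurons were alike in median (9.58 and 9.55) and in share at 10 or more (41.2% and 43.2%).

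Only the step from Cbln2 to Hpse had 1 direction, in the 2 plates with 3 neurons of each, and the next neighbours in the order did not differ beyond their plates. Within TL, the 12 Cbln2 neurons averaged 16.0 and the other 155 averaged 3.85, with Cbln2 neurons higher in both usable plates. Only 7 of these 12 remained without neurons with few genes, with a mean of 13.1 against 4.39 in 131 others, and no plate then held 3 of them. Of the 5 neurons with the highest Hcn2, from 35.1 to 55.4, all were Piezo2 only and 3 had Cbln2 at 10 or more. Most of the 17 Mrgprd neurons were Piezo2 only as well, although the 17 averaged 1.87, below the 4.50 of Gfra3 only neurons.

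Within LS, neurons with Hpse were among those with high Hcn2. LS Piezo2 only neurons as a class were similar to them (median 9.01, 40.0% at 10 or more). The 5 LS Cbln2 and 6 LS Fam19a1 neurons had higher means, of 13.9 and 14.4. The 44 Hpse neurons ranged from 0 to 21.2 (median 9.55), and 19 of them (43.2%) were at 10 or more, against 24 of 114 other LS neurons (21.1%, median 4.35). The Hpse neurons were higher in 5 of 5 plates, with means of 10.2 and 6.70, and in 4 of 5 without neurons with few genes (10.4 and 7.27). Trpa1 went the other way in both segments. TL neurons with Trpa1 averaged 3.16 for Hcn2 and those without averaged 7.74, and in LS the means were 5.45 and 9.05, with Trpa1 neurons lower in 5 of 5 plates each time.

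Hcn3 had an upper and a lower set of groups. Means in Hpse, Cbln2, Mrgprd, Ntm and Trpa1 neurons were 31.6, 27.7, 26.8, 25.2 and 25.2, with no consistent step between neighbours. Beyond neighbours, Hpse neurons were higher than Ntm and Trpa1 neurons in 5 of 5 plates each and than Mrgprd neurons in 3 of 3. Within LS, Hpse neurons averaged 31.6 and the other LS neurons 24.6, higher in 5 of 5 plates. Without neurons with few genes these means were 33.6 and 27.4, higher in 4 of 5. The Fam19a1 and Smr2 groups averaged 12.5 and 10.9, and the step from Trpa1 to Fam19a1 held in 5 of 5 plates. Hcn3 was at 10 or more in 16 of 17 Mrgprd neurons but in 20 of 40 Fam19a1 and 9 of 24 Smr2 neurons.

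These low groups were mostly TL. The 34 TL Fam19a1 neurons ranged from 0 to 42.4 with a median of 9.96, while the other 133 TL neurons had a median of 22.2, and the means of 12.1 and 23.2 had the same order in 5 of 5 plates. The 17 TL Smr2 neurons (median 4.61) averaged 10.1 against 22.2 in the other 150, lower in 3 of 3 plates. Without neurons with few genes the Hcn3 means were 13.7 in 30 Fam19a1 neurons against 26.8 in 108 others, lower in 5 of 5 plates, and 12.8 in 13 Smr2 neurons against 25.1 in 125 others, lower in 2 of 2. Among TL Piezo2 only neurons, the 27 with Fam19a1 had a Hcn3 median of 10.6 and the 28 without one of 26.3, with a lower mean in 3 of 4 plates, while their Hcn2 means of 7.29 and 7.91 split 2 to 2 over plates and became 7.88 and 5.58 without neurons with few genes. In TL neurons with 1 of these 2 markers, the 11 with Cbln2 and the 33 with Fam19a1 averaged 17.1 and 6.83 for Hcn2, 29.6 and 12.1 for Hcn3 and 0.583 and 0.241 for Hcn4, with Cbln2 neurons higher in 2 of 2 plates for each. The Hcn4 values lie near that of 1 read, and 6 and 25 of these neurons had none. Without neurons with few genes 6 Cbln2 neurons were left and no plate could be compared.

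Hcn4 was highest in Ntm neurons. The 48 ranged from 0 to 44.4 (median 2.52, mean 5.15), 6 were at 10 or more, and 37 had at least 1 read. The step down to Trpa1 neurons, with a mean of 1.71, had the same direction in 5 of 5 plates. The remaining groups averaged between 0.585 and 1.10, and 1 read of Hcn4 was worth 0.216 in the median neuron. The 110 LS neurons without Ntm (median 0.284) averaged 1.36, lower in 5 of 5 plates, and the Ntm mean without the neuron highest for Hcn4 was 4.31, still higher in 5 of 5. Without neurons with few genes the means were 5.68 in 41 Ntm neurons and 1.46 in 99 others, again higher in 5 of 5.

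The Ntm difference in Hcn4 was also present among LS Gfra3 only neurons, where the 38 with Ntm averaged 4.84 (median 2.59) and the 38 without averaged 1.33 (median 0.294), with Ntm neurons higher in 4 of 4 plates. Hcn3 in the same 76 neurons averaged 26.2 and 25.9. LS Hpse neurons were the reverse, with a Hcn4 mean of 0.762 against 3.19 in other LS neurons, lower in 5 of 5 plates, and 0 of 44 at 10 or more. Of the 11 neurons at 10 or more for Hcn4, 8 were LS, and 6 of these had Ntm at 10 or more. These comparisons within segments were chosen after the group means had been seen.

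**Figure D3:**
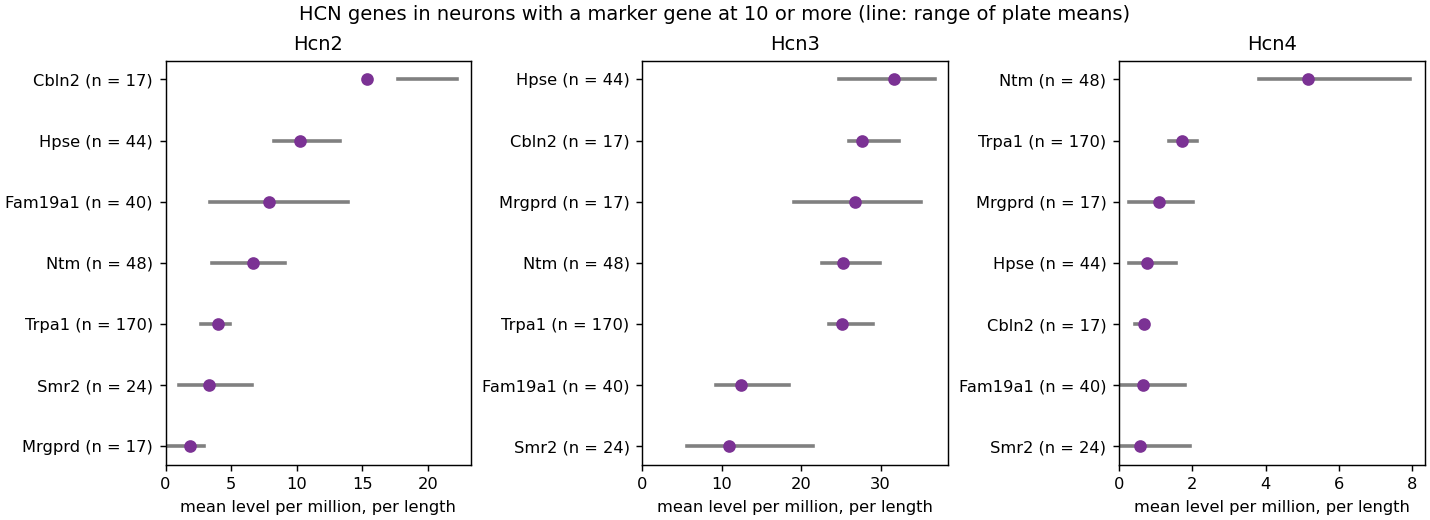
Mean level of Hcn2, Hcn3 and Hcn4 (points) in neurons with each of 7 marker genes at 10 or more, ordered by mean in each panel, with axes from 0. Grey lines span the lowest and highest plate mean over plates with at least 3 such neurons, which for Cbln2 are 2 plates that hold only some of its 17 neurons. Cbln2 leads for Hcn2, Ntm stands apart for Hcn4, and Fam19a1 and Smr2 are lowest for Hcn3.

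Co-expression of members was counted at a level of 10. Hcn3 was the only member at 10 or more in 189 neurons (58.2%), and Hcn2 and Hcn3 were both so in 54 (16.6%). Hcn2 stood alone in 4, Hcn4 alone in 2, Hcn3 with Hcn4 in 5, Hcn2 with Hcn4 in 1, all 3 members in 3 and no member in 67 (20.6%). Of those 67, 36 were among the neurons with few genes.

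Neurons with Hcn2 rarely lacked Hcn3. Hcn3 was at 10 or more in 57 of 62 neurons with Hcn2 at 10 or more (91.9%, 82.2 to 97.3) and in 194 of the other 263 (73.8%, 68.0 to 79.0). Without neurons with few genes the counts were 55 of 58 (94.8%, 85.6 to 98.9) and 187 of 220 (85.0%, 79.6 to 89.4). The pair was found in 16 TL (9.58%) and 38 LS neurons (24.1%), and in 18 Gfra3 only (11.4%) and 34 Piezo2 only neurons (28.3%). All 3 neurons with every member at 10 or more were LS. The Spearman correlation across the 325 neurons, with plate means removed, was 0.33 between Hcn2 and Hcn3, 0.29 between Hcn3 and Hcn4 and 0.16 between Hcn2 and Hcn4. Neurons of a plate share a library preparation, and neurons also differ in depth. The number of genes detected had a Spearman correlation of 0.36 with Hcn2, 0.40 with Hcn3 and 0.27 with Hcn4, and in the 278 neurons left without those with few genes the values between members were 0.20, 0.18 and 0.00856 in the same order.

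**Figure D4:**
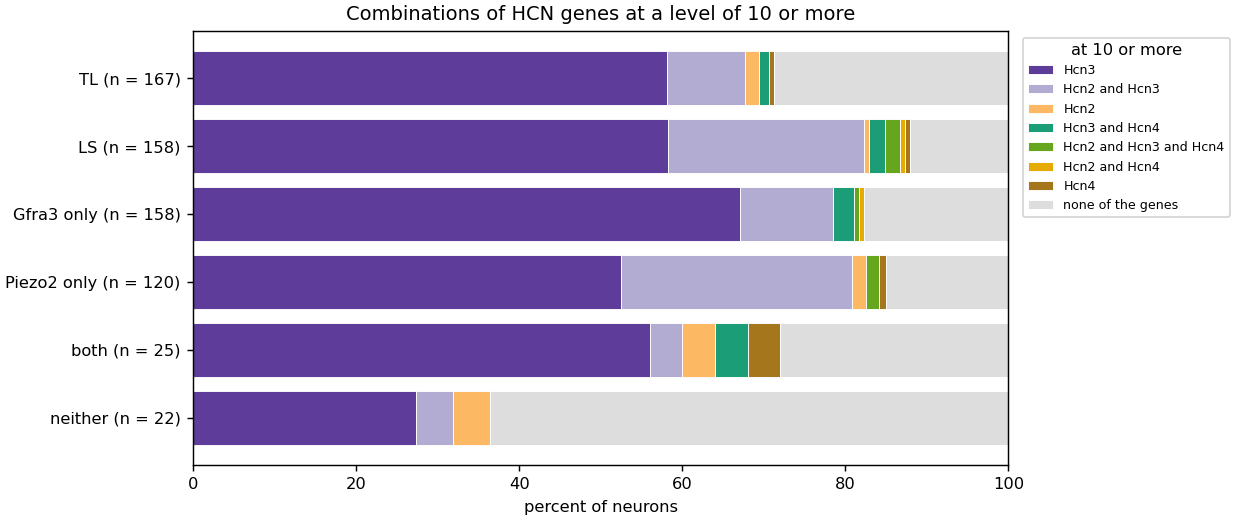
Share of neurons with each combination of HCN genes at 10 or more, in percent, by segment and by class. The segment for Hcn2 with Hcn3 is wider in LS (24.1%) than in TL (9.58%) and in Piezo2 only (28.3%) than in Gfra3 only neurons (11.4%), and grey marks neurons with no member at 10.

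Genes with the most similar pattern over neurons were ranked by the same correlation among 10282 or 10283 genes. For Hcn2 they included Eno2, the neuronal enolase of glycolysis (0.61), Abhd2, a lipid hydrolase (0.58), Pygb, the brain form of glycogen phosphorylase (0.57), and Cntn2, an axonal adhesion molecule (0.56). The 99th percentile of all genes was 0.44. Each of these 4 genes also had a higher mean in LS than in TL and in Piezo2 only than in Gfra3 only neurons, such as Pygb at 355 and 238 and at 455 and 195. These genes were picked by likeness over the same neurons, so their group order is not independent of that of Hcn2. Their Spearman correlation with Hcn2 ran from 0.45 to 0.59 within TL and from 0.33 to 0.47 within LS, and for Nefh it was 0.45 over all neurons.

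For Hcn3 the list was Syt1, the calcium sensor of vesicle release (0.59), Sv2a, a synaptic vesicle glycoprotein (0.54), Robo2, a receptor for Slit guidance cues (0.54), Eno1, an enolase whose reads may be shared with near-identical copies (0.54), and Cntn2 again (0.54), with a 99th percentile of 0.44. The correlation of Hcn3 with Nefh was -0.000792 and with Calca 0.23. For Hcn4 it was Tmem130, a membrane protein (0.46), Cacna1c, the pore of an L-type calcium channel (0.46), Gcnt2 and Galnt17, glycosyltransferases (0.44 each), and Slc7a7, a subunit of an amino acid transporter (0.44), with a 99th percentile of 0.37. All 5 had a higher mean in Gfra3 only than in Piezo2 only neurons, Cacna1c at 7.66 and 3.95, which is likewise not independent of how they were picked.

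Genes that act around the channels were read from 5 lists. Among 13 partners and regulators of HCN channels 5 had a mean of at least 10 in either comparison. Pex5l, below that mean, which encodes the auxiliary subunit TRIP8b, averaged 3.95 in LS and 3.57 in TL neurons, and 4.41 in Gfra3 only and 3.05 in Piezo2 only neurons. Highest were Vapa, a membrane-tethering protein (439 in LS, 345 in TL), Apba2, an adaptor protein (74.4 and 93.3), and Nedd4l, a ubiquitin ligase (24.8 and 37.2). None was past the fold between segments. Cav1, the caveolar scaffold, averaged 11.7 in TL and 0.790 in LS neurons but did not have the same direction in every plate. Between classes the 1 past the fold was Cav1, at 15.5 in Piezo2 only and 0.571 in Gfra3 only neurons. Its Piezo2 only mean was 8.06 without the 2 neurons high for endothelial markers. That is under the minimum mean of 10, so the call depended on those 2 neurons. Of the 118 other Piezo2 only neurons 96 were at 0 for Cav1 and 14 at 10 or more. The list's median log2 ratio was -0.33 for LS over TL and 0.37 for Piezo2 only over Gfra3 only, beside 0.04 over all genes in both.

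Adenylyl cyclases make cyclic AMP. Of 9 cyclases 3 had a mean of at least 10, and 2 of them were past the fold in favour of Gfra3 only neurons, Adcy3 at 21.1 against 8.90 and Adcy5 at 13.3 against 4.64, in 5 of 5 plates each. Adcy2 averaged 17.4 and 13.5. Adcy1, a cyclase activated by calcium and calmodulin that stayed under that mean, had the opposite order, with 0.0635 in Gfra3 only and 2.65 in Piezo2 only neurons. The median log2 ratio was -1.24 for Piezo2 only over Gfra3 only. None of the 3 was past the fold between segments, where the median was 0.57 and Adcy2 had 19.0 in LS and 10.7 in TL neurons, higher in LS in 5 of 5 plates.

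Of 15 phosphodiesterases that break down cyclic AMP, 4 had a mean of at least 10. Pde11a was past the fold in favour of Gfra3 only neurons (19.8 against 8.21, 5 of 5 plates), and the median of the 4 was -0.34 for Piezo2 only over Gfra3 only. Between segments 0 of 4 were past the fold, with a median of -0.05, and Pde8b came closest (18.0 in LS, 9.46 in TL). Of 8 effectors of cyclic AMP 7 had that mean. Prkar2b, a regulatory subunit of protein kinase A, was past the fold in favour of TL, at 112 in TL and 29.0 in LS neurons in 5 of 5 plates, and none was past it between classes, with medians of -0.09 and 0.20. The catalytic subunit Prkacb came closest between classes, at 35.4 in Piezo2 only and 18.0 in Gfra3 only neurons. Of 5 G protein alpha subunits that act on cyclases 4 had that mean and 0 were past the fold in either comparison, with medians of 0.04 and -0.25. Gnal, which stimulates cyclases, averaged 176 in Gfra3 only and 103 in Piezo2 only neurons.

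**Figure D5:**
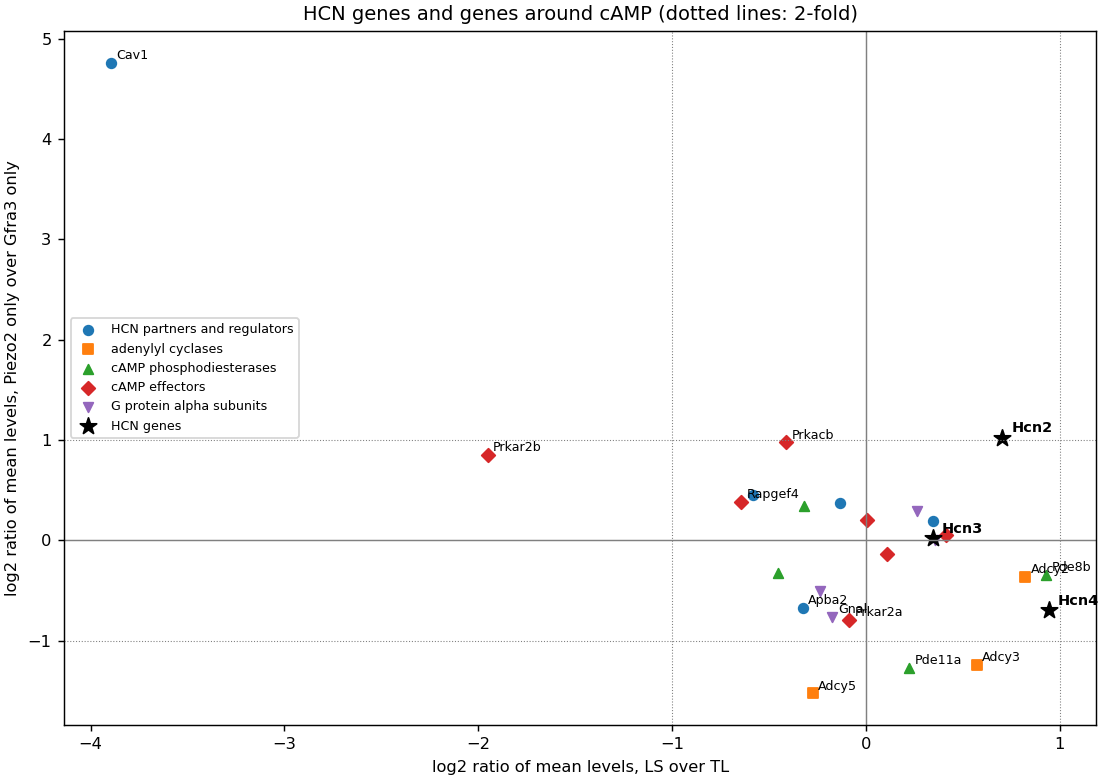
Log2 ratio of mean levels, LS over TL (horizontal) and Piezo2 only over Gfra3 only (vertical), for the HCN genes (stars) and for genes of the 5 lists with a mean of at least 10, named where either ratio is at least 0.6 in size. Dotted lines mark 2-fold. Hcn2 lies at 0.70 and 1.02, Hcn3 at 0.34 and 0.02 and Hcn4 at 0.94 and -0.70, while Adcy3, Adcy5 and Pde11a lie below the lower line and Prkar2b to the left. Cav1 lies furthest out, at -3.89 and 4.76, with the 2 neurons high for endothelial markers included (3.82 on the vertical axis without them).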

How the data were processed

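The table deposited by the authors held 1 column of log2 values for each of 325 neurons, made from Smart-seq2 libraries of single neurons with paired-end reads. The submitters' processing notes name bcl2fastq 2.15.0.4, STAR 2.4.1, featureCounts 1.4.4 and the genome build GRCm38.p3, and the paper names Ensembl 80. The unit fits log2(x + 1), with x proportional to reads over gene length, and neurons judged poor by the authors are not in it. According to the paper, contaminating satellite glia were removed after that filter and before clustering. The 325 therefore still include some cells that the authors did not cluster, and no label marks them. The remaining 74 labelled neurons and 13 bath controls were not analysed here.

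Here x was rescaled to 1000000 per neuron. Whole reads were recovered from x with GENCODE M21 exonic lengths, which gave whole numbers for 65.0% of values within a relative tolerance of 1e-06. For another 8712 genes, Hcn4 among them (3798 against 6118 bases), the length was found from the values, so read totals depend on it and levels do not. An rRNA gene took a median of 10.2% of these reads. Symbols matched 44585 identifiers.

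No test was run, as the labels name no mouse or culture. Means were compared over neurons and within plates holding at least 3 neurons of each group. Shares carry exact Clopper-Pearson 95% intervals. Named genes were the members, the 5 genes most like each, the 7 marker genes and, from the lists, those with the highest level or past the fold. Pex5l, Adcy1, Adcy2, Pde8b, Prkacb, Gnal and Nefh were named after their values were seen, as were C1qa, C1qb and S100b. Some genes that this rule or the lists hold are not reported here. For likeness, genes at 10 or more in at least 10% of neurons were used. Lists covered HCN partners and regulators, adenylyl cyclases, phosphodiesterases, cyclic AMP effectors, G protein alpha subunits, and markers of sensory neurons, satellite glia, peptidergic and neurofilament neurons, endothelium and macrophages. Members and lists were chosen with earlier results of these data known. Recovery and comparison steps were tested on simulated data. Python 3.11.15, numpy 2.4.6, pandas 2.3.3, scipy 1.17.1 and matplotlib 3.10.9 were used.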

Additional observations from a re-analysis of the deposited data

How the results depend on the processing

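No paired analysis was possible because the results come from no test and the labels' numbers only name neurons, so differences were read within plates instead. LS over TL kept its direction for the 3 members under every alternative run (unscaled values, CPM, mean log2 values, fewer neurons, each plate left out, no rRNA gene), and as a difference of mean log2(x + 1) it was 0.70 for Hcn3 and 0.37 for Hcn4. At a minimum mean of 1 the genes past the fold were 731 for LS and 561 for TL. For Piezo2 only over Gfra3 only, Hcn2 was 0.85 on mean log2 values and 0.86 without neurons with few genes. Hcn3 turned to -0.13 on unscaled values, -0.0944 without neurons with few genes, -0.0524 without the 5% highest for glia and -0.0489 with classes at 5, and ran from -0.10 to 0.106 with each plate left out (below 0 without plate 5 or 6). Unscaled values gave 266 genes past the fold for Piezo2 only and 595 for Gfra3 only, in place of 433 and 315. Within LS, Hcn3 was -0.0508 unscaled and Hcn4 ran from -1.22 (without plate 2) to 0.0347 (without plate 4), and within Gfra3 only neurons LS over TL for Hcn3 was -0.00116 without neurons with few genes. The causes were not tested. Shares at 1, 5 and 20 were 76.0%, 43.7% and 4.62% for Hcn2, 85.5%, 81.8% and 56.6% for Hcn3 (87.1% at 10 without neurons with few genes) and 37.2%, 11.1% and 0.615% for Hcn4. Without neurons with few genes, Hcn2 in TL Piezo2 only neurons with Fam19a1 over those without turned to 0.50 and Hcn3 in LS Trpa1 over other LS neurons to -0.0568. Alternatives chosen after seeing the data were leaving these neurons out of the marker groups and member pairs, the rRNA gene, the neuron highest for Hcn4, the endothelial neurons and thinning every neuron to 416007 reads, which gave 19.1%, 76.0% and 4.00% at 10. In neurons with exactly 1 marker gene, Hcn2 and Hcn4 were 0 in the 1 Mrgprd neuron and Hcn4 averaged 0.632 with Cbln2. With plate means kept, 3 of the 5 genes most like Hcn2 and 3 of those most like Hcn3 were shared. Depth limits Hcn4 most, with a median of 1 read.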
